A study of Mus musculus with 14 samples.

Results

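Autophagy was followed across the mouse B cell response through 10 genes of its core machinery: Ulk1, Becn1, Wipi1, Atg3, Atg5, Atg7, Atg12, Map1lc3b, Sqstm1 and Bnip3l. The genes were chosen by name, with earlier results of these data known, and their probe sets were found through the gene symbol annotated to each. Each gene was read on its brightest probe set, and its other probe sets served as a check. Of the 10 genes, 9 had a probe set annotated to them alone, out of 18193 such genes on the array. The 3 probe sets of Bnip3l are each annotated to the pseudogene Bnip3l-ps as well, so their signal cannot be assigned to either and was not tested.

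Total RNA of B cells sorted from spleens of male C57Bl/Ka mice was amplified and hybridised to 14 Affymetrix arrays, and the question was how gene expression differs between the stages of the response. Naive B cells came from unimmunized mice aged 4 to 8 weeks (3 arrays) and were B220+, CD23+, IgM-low, IgD+ and lambda light chain+. The other subsets bound the hapten NP and came from mice given NP-CGG, the hapten coupled to chicken gamma globulin, in alum by intraperitoneal injection. The dose was 100 µg, except that the label of plasma replicate 1 gives none. Germinal center cells (3 arrays) were taken on day 14 from mice aged 6 to 10 weeks as PNA+ cells with low CD38. Plasma cells (4 arrays) were taken on day 7 from mice aged 5 to 9 weeks as syndecan-1+ cells with low B220. Memory cells (4 arrays) were taken at 10 to 12 weeks from mice aged 14 to 18 weeks as cells with high CD38 and no IgM, IgD or PNA. Every sort left out cells with T cell markers (CD3, CD4, CD8, CD5), myeloid markers (Gr-1, CD11b) or the erythroid marker Ter119. Subset, time after injection, age and gate changed together and cannot be told apart. Nothing in the labels says that arrays of a subset came from separate animals, so p-values measure only the spread between these samples.

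Macroautophagy encloses cytoplasm, organelles or protein aggregates in a double membrane and delivers them to lysosomes. The ULK1 kinase starts the process, a lipid kinase complex built on Beclin 1 marks the membrane with PI3P, WIPI proteins read that mark, and ubiquitin-like conjugation reactions attach LC3 and its relatives to the growing membrane. Receptors such as p62 and NIX then tether cargo to LC3. In B cells the pathway is known for its part in the survival of memory cells and of long-lived plasma cells, and in plasma cells it limits the endoplasmic reticulum.

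Levels are RMA intensities on a linear scale in arbitrary units, summarised as mean log2 ± SD. Differences are log2 fold changes ± standard error from limma fitted to all 14 arrays. Their p-values were adjusted by Benjamini-Hochberg over the 18193 genes, and a gene passed at an adjusted p under 0.05. The number of arrays per subset limits the precision. A probe set's brightness depends on its sequence, so levels were compared between subsets and not between genes. An array's background, the brightest of 27 bacterial control probe sets, lay between 11.0 and 16.1. Arrays of one subset correlated at 0.968 to 0.994 over all genes. Each subset had a marker that followed its label. Prdm1 had a geometric mean of 521 in plasma cells against 10.9 to 20.2 elsewhere, and Bcl6 was brightest in germinal center cells at 2534. Fcer2a was brightest in naive cells at 1682, and Cd80 was above background in memory cells only, at 67.0. Some other listed markers were shared between subsets. The naive marker Cr2 gave 3461 in memory against 2932 in naive cells. The memory marker Nt5e gave 101 in germinal center against 95.5 in memory cells. Mki67, of the germinal center list, gave 6850 there and 5813 in plasma cells. In such bulk RNA, a gene used by fewer cells and one with less RNA per cell cannot be told apart.

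Promoters of 4 of the genes with a difference that passed are printed because these genes differ in which contrasts with naive cells passed. Atg5 fell in germinal center and memory cells against naive cells, whereas Wipi1, Sqstm1 and Map1lc3b rose in plasma cells against naive cells. Like Wipi1 and Sqstm1, Atg5 was also higher in plasma than in germinal center and memory cells. Each sequence is the 250 bases before the annotated start from RefSeq (GRCm38.p6), read 5′ to 3′ on the strand of the gene. The table held 7 of the 10 genes, not Atg12, Becn1 or Bnip3l. Capitals mark CACGTG, the E-box at the core of the CLEAR element that TFEB recognises.
Atg5, chr10:44268089-44268338, plus strand: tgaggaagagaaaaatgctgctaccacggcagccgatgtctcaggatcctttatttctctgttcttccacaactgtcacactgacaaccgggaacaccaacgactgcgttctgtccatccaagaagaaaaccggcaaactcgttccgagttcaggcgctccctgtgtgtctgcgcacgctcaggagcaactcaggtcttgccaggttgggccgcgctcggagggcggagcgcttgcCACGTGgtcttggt
Wipi1, chr11:109611390-109611639, minus strand: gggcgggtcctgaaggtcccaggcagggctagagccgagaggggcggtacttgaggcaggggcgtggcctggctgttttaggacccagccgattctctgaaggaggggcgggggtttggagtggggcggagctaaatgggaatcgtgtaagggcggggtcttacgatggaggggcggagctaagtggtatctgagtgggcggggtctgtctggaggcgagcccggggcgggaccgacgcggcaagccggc
Sqstm1, chr11:50210821-50211070, minus strand: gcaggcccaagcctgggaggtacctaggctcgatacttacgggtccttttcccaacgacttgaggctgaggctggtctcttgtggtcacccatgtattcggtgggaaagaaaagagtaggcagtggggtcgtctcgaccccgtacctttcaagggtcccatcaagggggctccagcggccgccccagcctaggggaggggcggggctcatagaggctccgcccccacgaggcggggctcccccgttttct
Map1lc3b, chr8:121590188-121590437, plus strand: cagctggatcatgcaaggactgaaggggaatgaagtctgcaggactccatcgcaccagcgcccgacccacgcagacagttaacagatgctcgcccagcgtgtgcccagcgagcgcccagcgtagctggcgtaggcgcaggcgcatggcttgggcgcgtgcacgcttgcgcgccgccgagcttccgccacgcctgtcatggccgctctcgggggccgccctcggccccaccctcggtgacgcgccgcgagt
In Atg5 the E-box began 14 bases before the start. It was also found in Atg7, from base -132, and in Atg3, from bases -94 and -71, but not in the windows of Ulk1, Sqstm1, Map1lc3b or Wipi1. Of 27025 promoters of this length, 6.05% held CACGTG. On both strands, 4 further motifs had no match in any of the 7 windows: the unfolded protein response element TGACGTGG (0.503% of promoters), the ER stress response element (0.122%), the amino acid response element TGATGNAA (3.53%) and the antioxidant response element TGACNNNGC (10.2%). No 2 matches overlapped. A match or its absence describes these letters and not the binding of a factor.

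Plasma cells stood above the other subsets for Wipi1 and Sqstm1, and germinal center cells stood below naive cells for Atg5 and Atg12. Against naive cells, 3 of the 9 genes rose in plasma cells (Wipi1, Map1lc3b and Sqstm1) and 1 fell (Atg12), where 14.2% of all genes rose and 16.1% fell. In germinal center cells 2 fell (Atg5 and Atg12) and 0 rose, beside 11.1% and 8.37% of all genes. In memory cells 1 fell (Atg5) and 0 rose, beside 3.26% and 2.31%. Against germinal center cells, 3 rose in plasma cells (Wipi1, Sqstm1 and Atg5) and 0 fell, beside 11.2% and 12.6%. Against memory cells, 4 were higher in plasma cells (Wipi1, Sqstm1, Map1lc3b and Atg5) and 0 lower, beside 17.2% and 16%. Memory and germinal center cells differed in 0 of the 9 genes by limma, beside 11% of all genes higher and 11.5% lower in memory cells. At an unadjusted p under 0.05 that count was 2 (Atg12 and Map1lc3b), and other settings of the fit gave 0 to 2. With arrays quantile-normalised or centred on bright genes, Atg12 no longer passed in plasma against naive cells, which left 3 higher and 0 lower. Contrasts with naive cells share the 3 naive arrays.

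**Figure D1:**
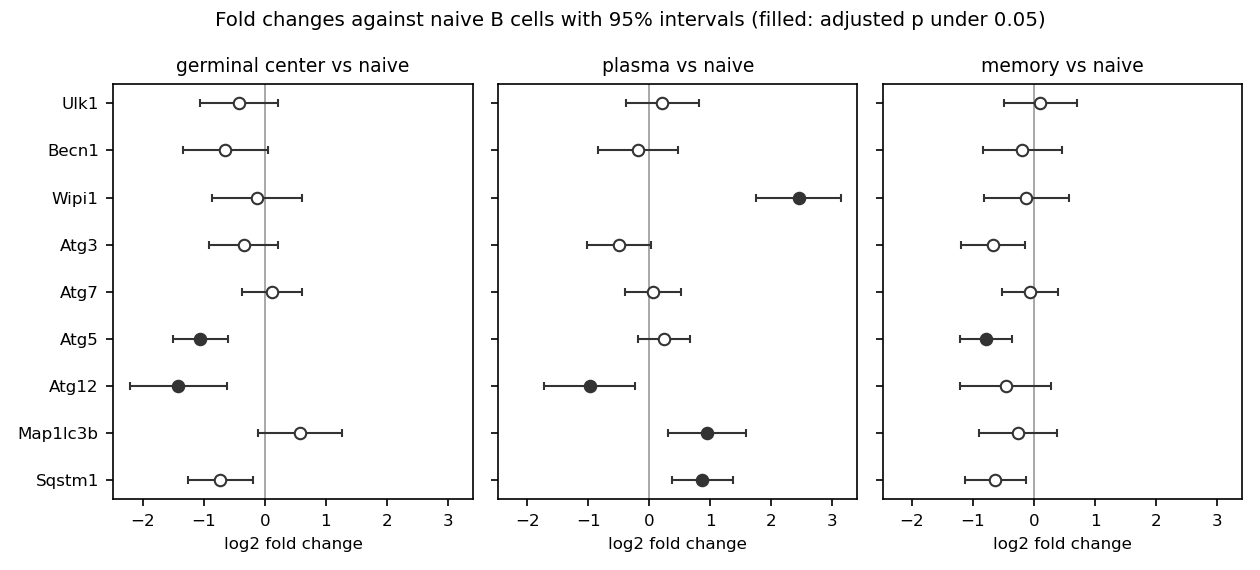
Log2 fold change of the 9 genes in germinal center, plasma and memory cells against naive cells, with 95% confidence intervals from limma. Filled points passed at an adjusted p under 0.05. Wipi1 in plasma cells lies farthest from 0, at 2.45, and Atg12 in germinal center cells lies lowest, at -1.42.

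Ulk1 encodes the kinase that starts autophagy and is itself held in check by mTORC1. Its intensity (1448370_at) was 69.0, 43.1 and 58.1 on the naive arrays, 25.5, 38.2 and 73.1 on the germinal center arrays, 75.1, 55.9, 72.3 and 57.5 on the plasma arrays, and 58.6, 59.2, 69.3 and 53.1 on the memory arrays. The germinal center arrays ran from the lowest value of all to near the highest, and no contrast passed. The difference of plasma from germinal center cells was 0.64 ± 0.28 (limma adjusted p = 0.122), and it passed after quantile normalization (0.73, adjusted p = 0.034) or centring on bright genes (0.71, adjusted p = 0.0461). Without germinal center array 3, the brightest of the subset, Ulk1 passed as well in that contrast (1.05, adjusted p = 0.00312), in memory against germinal center cells (0.94, adjusted p = 0.00682) and in germinal center against naive cells (-0.83, adjusted p = 0.0194). The other probe set of Ulk1, 1416504_at, was near background and highest in germinal center cells. Its geometric means were 17.3 in germinal center, 16.5 in plasma, 13.8 in memory and 11.9 in naive cells.

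Becn1 encodes Beclin 1, the scaffold of the lipid kinase complex and a binding partner of BCL2. It gave 652, 707 and 810.0 in naive cells, 506, 286 and 676 in germinal center cells, 869, 517, 878 and 406 in plasma cells, and 589, 507, 752 and 699 in memory cells (1455880_s_at). Plasma arrays fell into a brighter and a dimmer pair, all subsets overlapped, and no contrast passed. The difference of plasma from memory cells was 0.01, with a 95% interval from -0.59 to 0.61. The dimmer probe set 1460320_at read 128, 129.7, 161 and 104 in plasma cells, above all arrays of the other subsets, which lay between 37.4 and 91.5. It passed in plasma against germinal center cells (1.36 ± 0.31, limma adjusted p = 0.0056 over all probe sets) and against memory cells (1.22 ± 0.29, adjusted p = 0.00444), but not against naive cells (0.68, adjusted p = 0.131). The probe sets of Becn1 therefore disagree on plasma cells.

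Wipi1 encodes a reader of PI3P at the site where the autophagosome forms. In plasma cells its intensity (1439060_s_at) was 161, 46.7, 62.9 and 125. It was 15.3, 17.4 and 15.6 in naive cells, 13.8, 18.1 and 12.9 in germinal center cells, and 14.1, 13.5, 15.7 and 15.9 in memory cells. Every plasma array lay above every other array, and the others sat at the edge of detection: 3 of 3 naive, 1 of 3 germinal center and 3 of 4 memory arrays were above background. In plasma cells Wipi1 rose by 2.45 ± 0.32 over naive cells, a fold of 5.45 (limma adjusted p = 3.68e-05). Over germinal center cells it rose by 2.57 ± 0.32 (adjusted p = 2.93e-05) and over memory cells by 2.57 ± 0.30 (adjusted p = 8.84e-06). Naive, germinal center and memory cells did not differ beyond their spread (adjusted p = 0.851 for germinal center and 0.917 for memory against naive cells, and 0.998 between them). The probe set 1438709_at was above background on the 4 plasma arrays (45.6, 23.3, 24.5 and 85.6) and on no other array. There plasma cells were at least 2.98-fold higher than naive cells (adjusted p = 0.000739), at least 2.73-fold higher than germinal center cells (adjusted p = 0.000381) and at least 3.14-fold higher than memory cells (adjusted p = 0.000278); such a bound sets the dim subset at its arrays' background. A further probe set, 1427323_s_at, was the only one of the 6 above background on all arrays, and gave 0.38 against naive cells (adjusted p = 0.249). Its plasma arrays read 42.5, 23.7, 24.2 and 24.3, above the naive (19.3 to 22.4) and memory arrays (18.6 to 20.7). Germinal center array 1 read 31.9, above 3 of the plasma arrays. The probe sets of Wipi1 therefore disagree on the size of the plasma difference.

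Atg7 is the E1-like enzyme that activates both ATG12 and the LC3 family, and Atg3 is the E2-like enzyme that hands LC3 to its lipid. Atg7 (1428611_at) ranged from 31.6 to 54.7 in naive, 38.7 to 54.1 in germinal center, 35.0 to 60.5 in plasma and 34.7 to 46.2 in memory cells. All subsets overlapped, and the 6 differences lay between -0.19 and 0.13. On a dimmer probe set of Atg7, 1428612_at, plasma arrays (30.2 to 44.1) lay above memory arrays (11.9 to 19.5), by 1.05 ± 0.19 (limma adjusted p = 0.000612). The probe set 1428610_at, also above background on all arrays, leaned the other way. Its plasma arrays ran from 23.8 to 34.7 and its memory arrays from 29.0 to 44.0, with geometric means of 28.8 and 38.2. Atg3 (1448993_at) gave 1585, 1971 and 1620.4 in naive cells, 1934, 930.3 and 1376 in germinal center cells, 1499, 1115, 1105 and 1187 in plasma cells, and 712, 1174, 1185 and 1358 in memory cells. Plasma and memory arrays were all below the naive arrays, yet neither difference passed: -0.50 ± 0.25 for plasma (adjusted p = 0.155) and -0.67 ± 0.25 for memory cells (adjusted p = 0.152). In a fit of the plasma and naive arrays alone, the first of these passed (adjusted p = 0.0337).

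ATG12 is the ubiquitin-like protein that is joined to ATG5, and the conjugate directs LC3 to the membrane. Atg5 (1418236_s_at) gave 68.6, 119 and 67.4 in naive cells, 38.6, 39.7 and 40.3 in germinal center cells, 108, 103, 76.0 and 103 in plasma cells, and 54.8, 53.2, 40.3 and 44.0 in memory cells. Germinal center and memory arrays were all below the naive and plasma arrays. Atg5 fell in germinal center cells by 1.05 ± 0.21 against naive cells (limma adjusted p = 0.00251). In memory cells it fell by 0.78 ± 0.20 (adjusted p = 0.0335). In plasma cells it was 1.29 ± 0.20 above germinal center cells (adjusted p = 0.000192) and 1.02 ± 0.18 above memory cells (adjusted p = 0.000511). In order of mean level the subsets were plasma, naive, memory and germinal center cells, where plasma and naive cells did not differ beyond their spread (0.24, adjusted p = 0.422), nor did memory and germinal center cells (0.27, adjusted p = 0.384). The probe set 1415684_at gave -0.99 ± 0.24 for germinal center against naive cells (adjusted p = 0.0113), 1.29 ± 0.22 for plasma against germinal center cells (adjusted p = 0.000711), 0.64 for plasma against memory cells (adjusted p = 0.0298) and -0.34 for memory against naive cells (adjusted p = 0.523). The call in memory cells rested on few arrays: without naive array 2, the brightest of its subset, the difference was -0.51 (adjusted p = 0.145), and without memory array 2, 3 or 4 it was -0.84, -0.70 and -0.75 (adjusted p = 0.0543, 0.0818 and 0.0768). Without naive array 2, Atg5 passed as higher in plasma than in naive cells (0.51, adjusted p = 0.0393).

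Atg12 (1451747_a_at) gave 113, 137 and 136 in naive cells, 66.9, 32.6 and 50.5 in germinal center cells, 56.3, 87.0, 85.1 and 42.2 in plasma cells, and 59.1, 66.2, 143 and 131 in memory cells. Naive arrays lay above all germinal center and plasma arrays, and the memory arrays fell into a bright and a dim pair that spanned both. Atg12 fell in germinal center cells by 1.42 ± 0.37 (limma adjusted p = 0.0143) and in plasma cells by 0.98 ± 0.35 (adjusted p = 0.046). Memory cells differed from germinal center cells by 0.95 ± 0.35 (adjusted p = 0.0659), which passed without germinal center array 1 (adjusted p = 0.0434), memory array 1 (adjusted p = 0.0284) or memory array 2 (adjusted p = 0.0486). The germinal center call did not hold without germinal center array 2 (-1.14, adjusted p = 0.0672). Leaving out any naive array, plasma array 1 or 4, or germinal center array 3 ended the plasma call, with differences from -1.07 to -0.77 and adjusted p from 0.0552 to 0.131. The only other probe set with signal, 1451746_a_at, was near background and gave -0.01 for germinal center against naive cells. It was higher in plasma than in memory cells by 0.74 (adjusted p = 0.0121). Its geometric mean was higher in plasma cells, at 18.4, than in naive cells, at 14.5, opposite to the brightest probe set. With the mean of all probe sets, neither Atg12 call against naive cells held. Germinal center cells gave -0.44 (limma adjusted p = 0.129) and plasma cells -0.29 (adjusted p = 0.254).

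**Figure D2:**
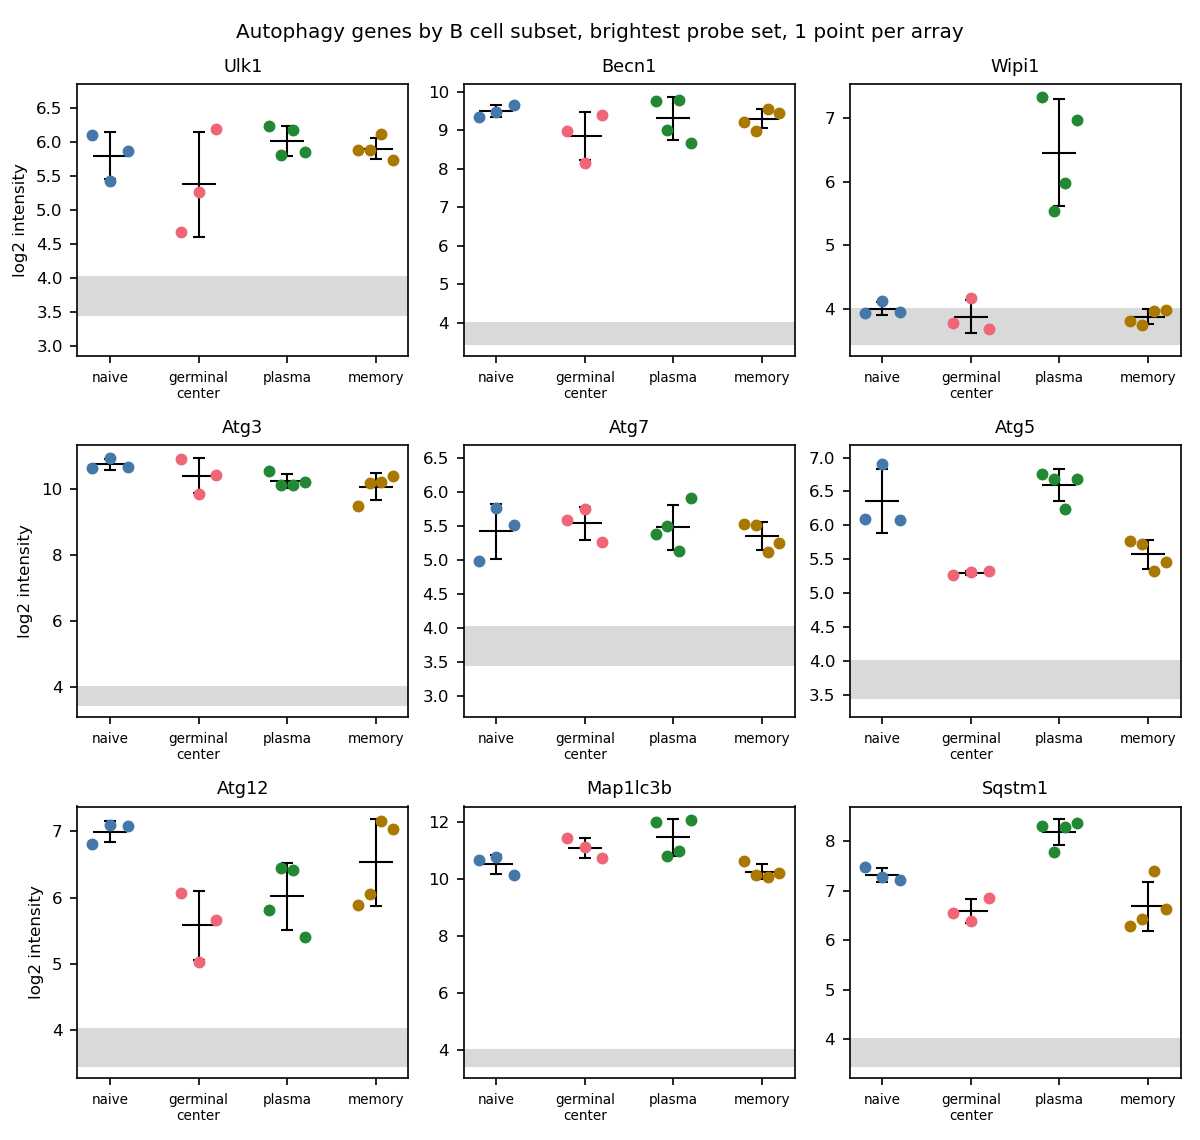
Intensity on a log2 scale of the 9 genes on each of the 14 arrays, by subset, with the mean ± SD of each subset and a grey band for the range of the arrays' backgrounds. Axes do not start at 0. The 4 plasma arrays of Wipi1 (46.7 to 161) and Sqstm1 (221 to 330.1) lie above all other arrays, and the germinal center arrays of Atg5 (38.6 to 40.3) lie close together below the naive arrays.

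Map1lc3b encodes LC3B, the protein whose lipid-bound form coats autophagosomes. Its intensity (1415930_a_at) was 1600.0, 1737 and 1123 in naive cells, 2768, 2208 and 1679.6 in germinal center cells, 4026, 1793, 2037 and 4219 in plasma cells, and 1571, 1117, 1060.3 and 1181 in memory cells. Plasma arrays 1 and 4 were the brightest of all, and plasma arrays 2 and 3 lay within the germinal center range. Map1lc3b was 0.94 ± 0.30 higher in plasma than in naive cells (limma adjusted p = 0.0271) and 1.20 ± 0.28 higher than in memory cells (adjusted p = 0.00336). Against germinal center cells the difference was 0.37 ± 0.30 (adjusted p = 0.451), and germinal center and naive cells differed by 0.57 ± 0.32 (adjusted p = 0.249). All memory arrays lay below the germinal center arrays, with a difference of -0.84 ± 0.30, which did not pass (adjusted p = 0.0606) but did without plasma array 2 or 4, germinal center array 3 or memory array 1 (adjusted p from 0.0407 to 0.0482).

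The rise of Map1lc3b over naive cells was not seen on its other probe sets. On 1415928_a_at, plasma arrays gave 699.8, 571, 873 and 723 against 802, 911 and 843 in naive cells, a difference of -0.26 (limma adjusted p = 0.406), and plasma and memory cells differed by 0.19 (adjusted p = 0.529). On 1415929_at, plasma and naive cells differed by 0.35 (adjusted p = 0.491), germinal center cells fell by 1.20 ± 0.34 against naive cells (adjusted p = 0.0297), and plasma cells were 1.54 ± 0.32 above germinal center cells (adjusted p = 0.0031). Which transcripts each probe set reads was not examined. With the mean of its probe sets in place of the brightest, Map1lc3b differed by 0.08 between plasma and naive cells (adjusted p = 0.722) and fell in germinal center cells by 0.49 (adjusted p = 0.0258), the opposite sign to the brightest probe set. On the brightest probe set, leaving out naive array 1 or 3 or plasma array 1 or 4 ended the call, with differences from 0.75 to 1.01 and adjusted p from 0.0532 to 0.126.

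**Figure D3:**
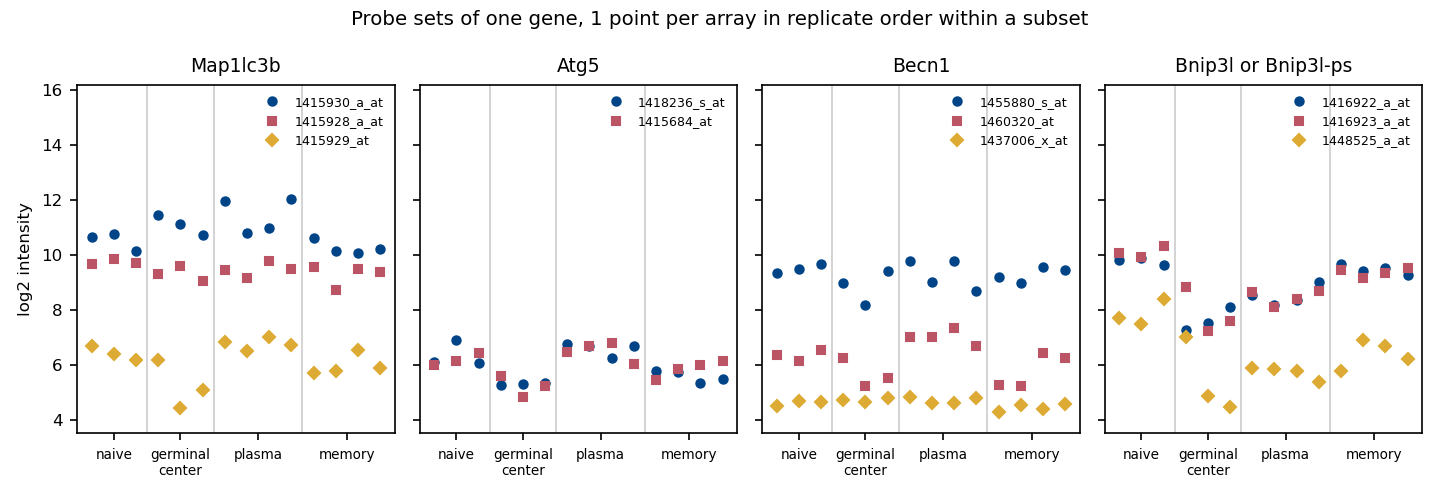
Intensity on a log2 scale per array and subset for the probe sets above background on all arrays of Map1lc3b, Atg5 and Becn1, and for the 3 probe sets shared by Bnip3l and Bnip3l-ps. For Map1lc3b the plasma arrays lie above the naive arrays on the brightest probe set (1793 to 4219), where arrays 2 and 3 fall within the germinal center range, but not on the next (571 to 873), whereas both probe sets of Atg5 are lowest in germinal center cells.

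Sqstm1 encodes p62, which binds ubiquitin and LC3 and is itself degraded with its cargo. Its intensity (1450957_a_at) was 318, 221, 311 and 330.1 in plasma cells, 178, 154 and 149 in naive cells, 93.5, 83.4 and 116 in germinal center cells, and 78.3, 86.4, 169 and 98.6 in memory cells. All plasma arrays were above all others, all naive arrays were above the germinal center arrays, and memory array 3 lay among the naive arrays. Sqstm1 rose in plasma cells by 0.87 ± 0.23 over naive cells (limma adjusted p = 0.0109). It was 1.59 ± 0.23 above germinal center cells (adjusted p = 0.000126) and 1.50 ± 0.22 above memory cells (adjusted p = 7.06e-05). Below plasma cells the order of means was naive, memory and germinal center cells, and no neighbours in it differed beyond their spread: memory against naive cells gave -0.63 ± 0.23 (adjusted p = 0.155), and memory against germinal center cells 0.09 ± 0.23 (adjusted p = 0.832). Germinal center against naive cells gave -0.73 ± 0.25 (adjusted p = 0.0574), which passed without germinal center array 3 (adjusted p = 0.0433), memory array 1 (adjusted p = 0.0487) or memory array 3 (adjusted p = 0.0119). Without memory array 3, memory cells also fell below naive cells (-0.87, adjusted p = 0.0146). No other probe set of Sqstm1 was above background on all arrays.

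Bnip3l encodes NIX, a receptor on the outer mitochondrial membrane that draws mitochondria into autophagosomes. On 1416922_a_at the joint signal of Bnip3l and Bnip3l-ps was 888, 945 and 787 in naive cells, 155, 182 and 274 in germinal center cells, 372, 292, 327 and 512 in plasma cells, and 809.8, 681, 725 and 614 in memory cells. On 1416923_a_at it ran from 956 to 1276 in naive, 151 to 451 in germinal center, 273 to 409 in plasma and 565 to 727 in memory cells. On 1448525_a_at the ranges were 180.0 to 336, 22.1 to 129, 41.7 to 58.9 and 54.9 to 119 in the same order. Every germinal center and plasma array was below every naive array on all 3 probe sets. Which of the loci gives this signal cannot be told apart.

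Measures of RNA quality and some markers of other cells moved with some subsets. The ratio of the 3′ to the middle beta-actin probe set, which grows as RNA is degraded or copied in part, was 4.39 to 5.30 in naive and 4.15 to 5.33 in memory cells, 5.47 to 6.91 in plasma cells, and 10.1, 17.6 and 6.11 on the germinal center arrays. Germinal center array 2, with the highest ratio, was the dimmest of its subset for 4 of the 9 genes and the brightest for 2. Array 3, with the lowest ratio of the subset, was the dimmest for 3 and the brightest for 4. With this ratio as a covariate, Atg5 and Atg12 in germinal center against naive cells gave -0.92 (limma adjusted p = 0.132) and -0.91 (adjusted p = 0.475). In plasma against naive cells, Map1lc3b gave 0.86 (adjusted p = 0.0775) and Atg12 -0.80 (adjusted p = 0.144), while Wipi1 and Sqstm1 kept their calls. Every germinal center and plasma ratio lay above every naive ratio, so this fit can hardly separate subset from ratio. The 3′ to middle ratio of Gapdh ordered the subsets otherwise and was not used as a covariate. It was 11.0 to 13.0 in memory, 9.44 to 12.0 in naive, 8.23 to 10.9 in germinal center and 5.45 to 8.41 in plasma cells. Of the 8 measured myeloid markers, the summed intensity was 167 to 369 in plasma, 203 to 242 in naive, 187 to 275 in germinal center and 479 to 767 in memory cells, with Itgam, Cd14 and Cd163 below background on every array. Cd68 was above background on 4 of 4 plasma arrays, at a geometric mean of 20.5 against 8.13 to 13.0 elsewhere. Lyz2 was above it on 4 of 4 plasma arrays too, at 26.8 against 10.7 to 14.6, with 93.1 on plasma array 2. Csf1r was 145 and 107 on plasma arrays 1 and 4, the brightest for Wipi1 and Map1lc3b, and 56.0 and 30.8 on arrays 2 and 3. Adgre1, above background on every array, was instead highest in naive cells at 51.2, against 27.9 in plasma, 26.5 in memory and 19.9 in germinal center cells. In memory cells Mpeg1 made up most of the sum, at 508, and it was lowest in plasma cells, at 84.3. The 8 T and NK cell markers summed to 119.7 to 134 on the plasma arrays, above all other arrays (96.3 to 117). Of these Cd3e, above background on every array, gave a geometric mean of 37.4 in plasma cells against 22.3 to 27.6 elsewhere, Cd4 gave 19.3 against 16.7 to 17.4 and Cd8a 19.9 against 13.1 to 17.0, while Cd3g, Cd8b1 and Nkg7 were below background on every array. The 6 neutrophil markers summed to 50.0 to 67.1, with S100a8 and S100a9 below background. Germinal center arrays had a sum of 840 to 1167 for 7 erythroid markers, of which Hbb-bh1 gave 914 and Hba-a1 and Alas2 were below background, against 68.5 to 94.4 in the other subsets. For 5 dendritic cell markers it was 250 to 306, of which Flt3 gave 213, against 73.7 to 124. The other dendritic markers, Itgax, Siglech, Xcr1 and Zbtb46, had geometric means of 9.48 to 23.3 in germinal center cells and 9.10 to 23.9 elsewhere. Whether these signals come from other cells, and what part such cells have in the results, was not tested.

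A wider list of 76 autophagy genes, of which 73 were measured, held the 9 genes above and was grouped by role. Among the others, Optn and Bnip3l had no probe set of their own. Germinal center cells had lower levels than naive cells in 26 of the 73 and higher levels in 2, with a median of -0.41 beside 0.06 over all genes, of which 11.1% passed as lower and 8.37% as higher. Plasma cells had 22 lower and 9 higher than naive cells (median -0.09 beside 0.06), where 16.1% and 14.2% of all genes passed. Memory cells had 5 lower and 0 higher (median -0.21 beside -0.03), where 3.26% and 2.31% did. With arrays centred on the median of bright genes these splits were 18 lower and 15 higher in plasma cells, and 2 lower and 2 higher in memory cells. That centring moved the median of all genes against naive cells by 0.18 (germinal center), 0.24 (plasma) and 0.18 (memory), and centring on all genes moved it by -0.14, -0.16 and -0.06. Against germinal center cells, plasma cells had 19 higher and 7 lower (median 0.25 beside -0.02; 11.2% and 12.6% of all genes) and memory cells 18 higher and 4 lower (median 0.24 beside -0.08; 11% and 11.5%). Against memory cells, plasma cells had 20 higher and 21 lower (median 0.01 beside 0.08; 17.2% and 16%). Once the actin ratio was in the fit, 11 of the 73 passed in germinal center against naive cells, and 7 in memory against germinal center cells. Calls also fell over all 18193 genes, from 3542 to 1540 in the first contrast and from 4084 to 1779 in the second. The 5 memory calls became 2 or 3 without naive array 1, 2 or 3 or memory array 2 or 4.

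Most genes of the ATG8 family, to which LC3B belongs, passed as higher in plasma cells. Against memory cells all 5 measured genes did (median 1.20), beside 17.2% of all genes. Against naive cells 4 of 5 did (median 1.01), beside 14.2%, and 3 with arrays centred on the median of all genes. Of these 4, Map1lc3b and Gabarapl2 did not pass with a floor of 16, with the mean of all probe sets or with the actin ratio in the fit. Against germinal center cells 3 of 5 passed (median 0.76), beside 11.2%. Map1lc3a, which encodes LC3A, was 1.73 ± 0.39 above naive cells (limma adjusted p = 0.00332), 1.92 ± 0.39 above germinal center cells (adjusted p = 0.00191) and 1.99 ± 0.36 above memory cells (adjusted p = 0.000523). Gabarap was 1.10 ± 0.25 above memory cells (adjusted p = 0.00346). Gabarapl2 was higher in plasma than in memory cells by 1.71 ± 0.35 (adjusted p = 0.0015). It was also the single ATG8 gene that rose in germinal center against naive cells (1.42 ± 0.41, adjusted p = 0.0248), a call lost without germinal center array 1 or any of the naive arrays (0.79 to 1.45, adjusted p from 0.0552 to 0.0651) or with the actin ratio in the fit (1.16, adjusted p = 0.4). Its difference of plasma from naive cells, 1.23 ± 0.38 (adjusted p = 0.0244), did not pass without any 1 of the naive arrays or without plasma array 2 or 4 (adjusted p from 0.0525 to 0.0681). It did not pass either with the actin ratio in the fit (1.14, adjusted p = 0.0689), with centring on all genes (1.07, adjusted p = 0.0559), with the floor of 16 (adjusted p = 0.0642) or with the mean of all probe sets (0.43, adjusted p = 0.137). In memory cells Gabarapl2 fell by 1.90 ± 0.38 against germinal center cells (adjusted p = 0.00216), but gave -1.64 with the actin ratio in the fit, which did not pass (adjusted p = 0.154).

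**Figure D4:**
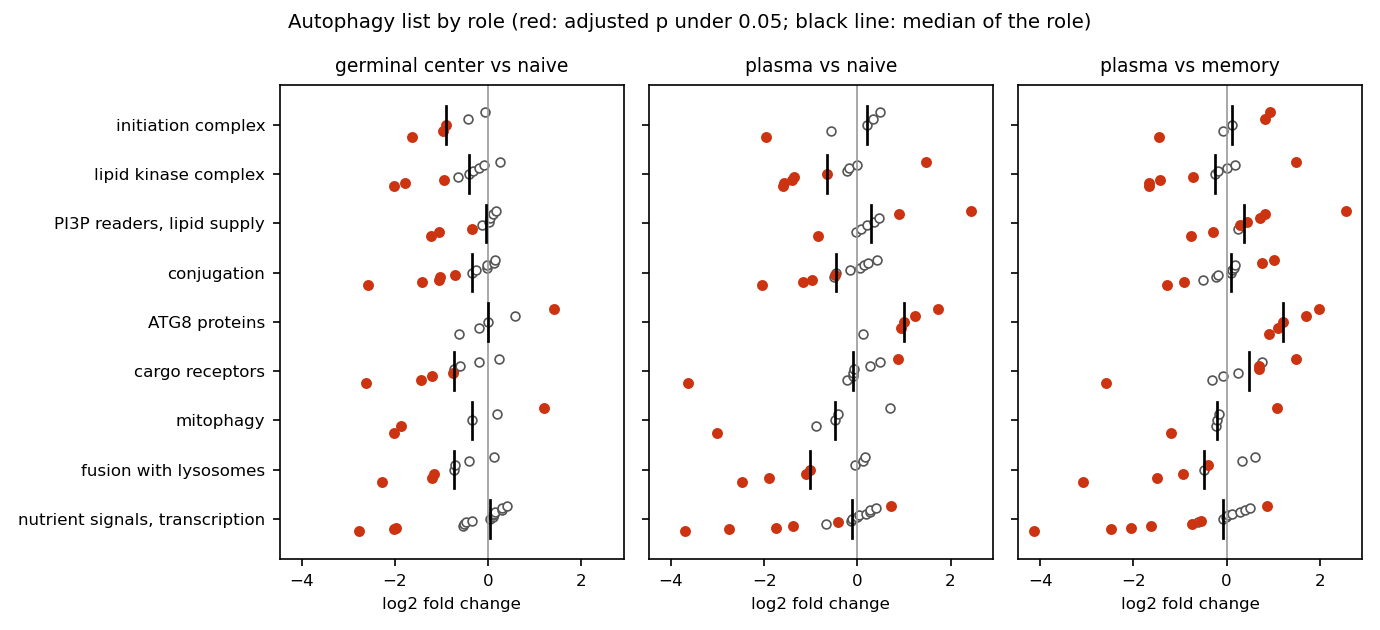
Log2 fold change of the 73 measured autophagy genes by role, for germinal center against naive, plasma against naive and plasma against memory cells. Red points passed at an adjusted p under 0.05, and a black line marks the median of each role. All 5 ATG8 genes are higher in plasma than in memory cells, while 4 of the 7 fusion genes passed below 0 in each plasma contrast.

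Genes of the cargo receptors differed among themselves. Of 8 measured, 4 fell in germinal center against naive cells (median -0.74), beside 11.1% of all genes, and 3 to 5 fell under the other scalings. In plasma against germinal center cells 5 were higher and 1 lower (median 1.11), beside 11.2% and 12.6%. Tax1bp1, a ubiquitin-binding receptor, fell in germinal center cells by 2.61 ± 0.33 against naive cells (limma adjusted p = 4.92e-05) and was 2.39 ± 0.31 higher in plasma than in germinal center cells (adjusted p = 3.91e-05). Nbr1, a relative of p62, was 1.70 ± 0.24 higher in that contrast (adjusted p = 0.000103). Retreg1, a receptor for the autophagy of endoplasmic reticulum, went the other way. In plasma cells Retreg1 fell by 3.64 ± 0.21 against naive cells (adjusted p = 1.1e-08), and fell by 2.89 ± 0.21 against germinal center cells (adjusted p = 1.51e-07). Against memory cells Retreg1 fell by 2.59 ± 0.20 (adjusted p = 1.31e-07). It also fell in memory against naive cells by 1.04 ± 0.21 (adjusted p = 0.0105), which did not pass without naive array 3 (adjusted p = 0.0558).

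Among 5 measured genes of mitophagy, Bnip3, a hypoxia-induced relative of NIX, fell by 3.01 ± 0.24 in plasma cells (limma adjusted p = 2.26e-07) and by 1.83 ± 0.24 in memory cells (adjusted p = 0.000408), both against naive cells. Fundc1, another mitochondrial receptor, rose in germinal center cells by 1.20 ± 0.27 over naive cells (adjusted p = 0.00539) and fell by 1.59 ± 0.25 in memory against germinal center cells (adjusted p = 0.000352).

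The genes of fusion with lysosomes fell in 3 of 7 in germinal center cells (median -0.73) and in 4 of 7 in plasma cells (median -1.02), both against naive cells, beside 11.1% and 16.1% of all genes. Stx17, the SNARE that the finished autophagosome carries, fell by 2.27 ± 0.50 in germinal center cells (limma adjusted p = 0.00445). In memory cells Stx17 was 2.86 ± 0.46 above germinal center cells (adjusted p = 0.000408), and in plasma cells it fell by 3.08 ± 0.43 against memory cells (adjusted p = 5.09e-05). Plekhm1, an adaptor of RAB7, fell by 2.01 ± 0.13 in plasma against germinal center cells (adjusted p = 2.71e-08). With the actin ratio in the fit, Stx17 no longer passed in germinal center against naive (-1.78, adjusted p = 0.23) or memory against germinal center cells (2.35, adjusted p = 0.0793).

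Of the 9 genes in the lipid kinase list, 3 fell in germinal center and 5 in plasma cells against naive cells, with medians of -0.41 and -0.65, beside 11.1% and 16.1% of all genes. Vmp1, an endoplasmic reticulum protein needed for autophagosomes to form rather than a kinase subunit, was the gene that rose in plasma cells, by 1.47 ± 0.23 over naive cells (limma adjusted p = 0.000195), 1.80 ± 0.23 over germinal center cells (adjusted p = 3.75e-05) and 1.50 ± 0.22 over memory cells (adjusted p = 6.64e-05). Rubcn, which encodes an inhibitor of the complex, fell by 1.83 ± 0.13 in plasma against germinal center cells (adjusted p = 7.09e-08). Against naive cells too, the initiation complex had 3 of 5 genes lower in germinal center cells and 1 lower in plasma cells. In the conjugation system, 5 of 11 fell in germinal center and 4 of 11 in plasma cells. That plasma count was 2 lower and 1 higher with arrays centred on bright genes, and 3 lower and 1 higher after quantile normalization, and both scalings gave 1 initiation gene as higher in plasma cells. Atg16l2, a relative of the conjugate's membrane anchor, fell by 2.57 ± 0.42 in germinal center cells (adjusted p = 0.000434), where it was above background on 2 of 3 arrays; with the actin ratio in the fit it gave -1.92 (adjusted p = 0.0821). Of the 8 readers of PI3P and suppliers of lipid, to which Wipi1 belongs, 5 were higher and 2 lower in plasma than in memory cells, with a median of 0.37, beside 17.2% and 16% of all genes, and 3 or 4 were higher under the other scalings.

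The nutrient list holds mTORC1, its inhibitors and the transcription factors of the pathway, and 5 of its 15 genes fell and 1 rose in plasma against naive cells, beside 16.1% and 14.2% of all genes. After quantile normalization or centring on all genes 0 rose. Sesn3, a sestrin that restrains mTORC1, fell in plasma cells by 3.69 ± 0.21 against naive cells (limma adjusted p = 8.87e-09), by 4.00 ± 0.21 against germinal center cells (adjusted p = 5.35e-09) and by 4.14 ± 0.20 against memory cells (adjusted p = 1.01e-09). Sesn1, its relative, fell by 2.77 ± 0.33 in germinal center cells (adjusted p = 2.53e-05) and by 2.75 ± 0.30 in plasma cells (adjusted p = 6.48e-06) against naive cells, and was 2.49 ± 0.30 higher in memory than in germinal center cells (adjusted p = 3.43e-05). In the same contrast Ddit4, another brake on mTORC1, was 2.33 ± 0.36 higher (adjusted p = 0.00024) and Foxo3, a transcription factor of autophagy genes, 2.10 ± 0.15 higher (adjusted p = 1.12e-07). The transcription factor Tfeb passed in none of the 6 contrasts.

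The genes whose pattern over the 14 arrays was most like that of the 3 genes with the widest span of subset means were found by Pearson correlation of log2 intensity among 6115 or 6116 other bright genes. These values describe arrays that share subsets and carry no test. Wipi1 was closest to Arfgap3 (0.97), Rnf185 (0.97) and Hid1 (0.96), and Arfgap3 had a geometric mean of 368 in plasma cells against 41.9 to 42.3 elsewhere. Sqstm1 was closest to Smpd1 (0.95), Cd47 (0.95) and Apmap (0.94). Atg12 was closest to B3gnt2 (0.93), Slc39a10 (0.93) and Tfam (0.92), and Slc39a10 had 324 in naive cells against 74.0 in germinal center cells.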

How the data were processed

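Intensity per probe set and array was taken as deposited: the authors made it with RMA, per the submitters' processing notes, on 45101 probe sets (64 of them controls), and chip definition and software are not given in the sources used here. All values lay above 0, so log2 was taken of the deposited intensity with no pseudocount, scaling or filter. Gene symbols came from the platform annotation: 34945 probe sets carry 1 symbol, 932 several and 9160 none. By Entrez number 34741 matched the reference gene table (GRCm38.p6), and 0 symbols changed. Each gene was read on the probe set of 1 symbol with the highest mean log2. Models had 1 mean per subset over 14 arrays and 10 residual degrees of freedom (limma 3.58.1, R 4.3.3, eBayes without trend). Tests were two-sided, adjusted within each of 6 contrasts by Benjamini-Hochberg. Other probe sets were fitted and adjusted over all probe sets of 1 symbol. The fit was tested on simulated data.

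The 10 genes, the wider list and the tests were chosen with earlier results of these data known. All 10 genes are named, and 1 gene of the wider list is not reported here. From the wider list, genes were named that passed, moved by 1 or more on the log2 scale and had no overlap of arrays, up to 4 per direction and contrast. Tfeb, which passed in no contrast, was named outside this rule. For the 3 genes with the widest span of subset means, the 3 most correlated genes with a mean log2 of at least 6 were named. Plots were made in Python 3.11.15 (matplotlib 3.10.9, pandas 2.3.3). Alternatives covered normalization, centring, filter, floor, variance model, array weights, arrays, gene unit, actin ratio, replicate block and threshold.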

Additional observations from a re-analysis of the deposited data

Results flagged for a closer look

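Dixon's criterion at its 95% level was applied to the 18 groups of 4 arrays (plasma and memory cells, 9 genes), of which chance marks about 1 in 20. On plasma array 3 Atg5 was 76.0, against 103 to 108 on the other plasma arrays. On plasma array 2 Sqstm1 was 221, against 311 to 330.1 on the others. Both values lay apart from the rest of their subset on the low side and still above every germinal center and memory array of the same gene.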

How the results depend on the processing

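Of 54 differences of the 9 genes, 14 passed, and 8 of these kept their direction and call in all 26 alternatives, 14 of which leave out an array. Of the uncalled values, 55 of 1002 took the other sign. Once the actin ratio was in the fit, the genes that passed numbered 0 in germinal center against naive cells (2 as reported) and 2 in plasma against naive cells (4 as reported), and those of the wider list 11 in germinal center against naive (28) and 7 in memory against germinal center cells (22). In plasma against naive cells a floor of 16 or the mean of all probe sets also left 2. In memory against naive cells 0 in place of 1 passed under quantile normalization, centring on bright genes, the floor, eBayes with a trend, a fit of these subsets alone, or an adjusted p under 0.01, and the wider list gave 3 under quantile normalization. At an adjusted p under 0.01, 1 gene passed in germinal center and 1 in plasma cells against naive cells, and 1 of the wider list in memory cells (5). In memory against germinal center cells 1 passed with bright-gene centring or a fit of these subsets alone, and 2 with bright genes only or eBayes with a trend. The mean of all probe sets reversed Map1lc3b in germinal center cells (-0.49, adjusted p = 0.0258). Leaving out arrays gave 1 to 4 in germinal center, 2 to 4 in plasma and 0 to 1 in memory against naive cells, 0 to 2 in memory against germinal center cells, and 2 to 7 of the wider list in memory cells. The cause of these changes was not tested.

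Replicate numbers gave no clear sign of pairing. Of 19 pairs of arrays with the same number, 6 had deviations from their subset means correlated over 0.1 (range -0.22 to 0.25). Of 54 pairs with different numbers, 13 did (-0.29 to 0.31). The medians were -0.0102 and -0.0045. Each subset mean rests on few arrays, so this comparison cannot exclude a pairing. With a replicate block 1 gene passed in memory against germinal center cells, Map1lc3b (-0.93, adjusted p = 0.0148). Sqstm1 passed in germinal center (-0.73, adjusted p = 0.0486) and Atg12 did not in plasma against naive cells (-0.96, adjusted p = 0.0795), nor did Gabarapl2 (1.15, adjusted p = 0.0598).

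Over all genes, 3542 passed in germinal center against naive cells (1540 with the actin ratio, 2258 at 0.01), 1014 in memory against naive cells (596 with the floor, 442 at 0.01, 603 and 624 without naive array 2 and 3) and 4084 in memory against germinal center cells (1779 and 2661). Signal near background limits Wipi1 outside plasma cells.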
